A study of Macaca mulatta with 24 samples.

Results

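The genes described here are those of macrophages, monocytes and granulocytes, measured in the colon of rhesus macaques after total-body irradiation (TBI), in which the animal is irradiated as a whole and once. The list held 53 genes, mostly of macrophage surface receptors, complement C1q, Fc receptors, phagocyte enzymes, neutrophil proteins and mast cell proteins. It was chosen with earlier results of these data known. A gene with several probes was represented by the probe with the highest mean signal over the 24 arrays. Of the 53 genes, 39 had a probe among 16095 gene symbols with one. The test covered 36 of those, and FPR2, MPO and AQP10 did not pass the filter on dim probes. The other 14 (CD68, CD163, STAB1, C1QB, ITGAM, ITGAX, ITGB2, NCF4, ELANE, CEACAM8, MNDA, CSF2RA, SPI1 and TPSAB1) were not analysed here.

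Each of 24 young-adult male rhesus macaques gave a piece of colon and 1 Agilent one-colour array, without pooling. There were 4 controls, which received sham irradiation, are labelled day 4 and served as the baseline for every day. The irradiated animals received gamma radiation from a cobalt source. After 6.7-Gy TBI, 4 animals were examined on day 4, 4 on day 7 and 2 on day 12, and after 7.4-Gy TBI likewise 4, 4 and 2. Days follow the label of each sample. The pieces were whole colon, so every value is an average over epithelium, muscle, vessels, connective tissue and blood cells.

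Macrophages of the colon lie in the lamina propria beneath the epithelium and in the muscle layer. They take up dying cells and microbes through scavenger and Fc receptors, tag targets with complement C1q, and are renewed in part from blood monocytes through the receptor for colony-stimulating factor 1. Neutrophils are short-lived granulocytes that come from the bone marrow under granulocyte colony-stimulating factor and follow formylated bacterial peptides, while mast cells are long-lived residents that need the receptor KIT and store histamine and proteases. In the bone marrow, the precursors of monocytes and granulocytes are sensitive to radiation, and blood counts of both cell types are known to fall after TBI.

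Between 66.8% and 85% of the probes of an array were well above background, and the 75th percentile of the signal ran from 550.7 to 963.6 between arrays. Levels below are log2 signals relative to the 75th percentile of the same array, so that 0 is a signal equal to that percentile. They compare animals for 1 probe and do not rank different genes. Values of single animals stand in the order of the replicate numbers in the labels, and a value is missing where the scanner software marked the spot as an outlier. A change was called when limma gave an adjusted p under 0.05 over all probes with a change of at least 2-fold. The animal labelled 6.7 Gy day 4 replicate 4 stood apart for these genes. It had the lowest level of its group in 25 of 35 genes, with a median deviation of -0.51 log2 from the group mean. After 7.4-Gy TBI on day 7, replicate 4 was lowest in 23 of 35 genes and replicate 1 highest in 22. Counts without each of these animals are given where they differ.

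Day 4 was the day on which these genes stood above control. After 6.7-Gy TBI, limma called CHI3L1 and FCGR3 higher and no gene lower, 2 of 36 or 5.56%, where 4.08% of all 14721 genes tested were called in either direction, 2.27% higher and 1.81% lower. After 7.4-Gy TBI it called CHI3L1, FCGR3, FCGR1A and MRC1 higher and none lower, 4 of 36 or 11.1%, where 8.02% of all genes were called, 4.11% higher and 3.91% lower. Both counts are small, and the 6.7-Gy count is near the share of all genes called. Many others shifted by less than the threshold in the same direction. At 6.7 Gy, 28 of the 36 lay above control and 8 below, with a median change of 0.37 log2 against -0.04 over all genes. At 7.4 Gy, 31 lay above and 5 below, with a median of 0.51 against -0.03. In a bulk sample, more (or fewer) cells of a type and more (or less) RNA per cell cannot be told apart.

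**Figure D1:**
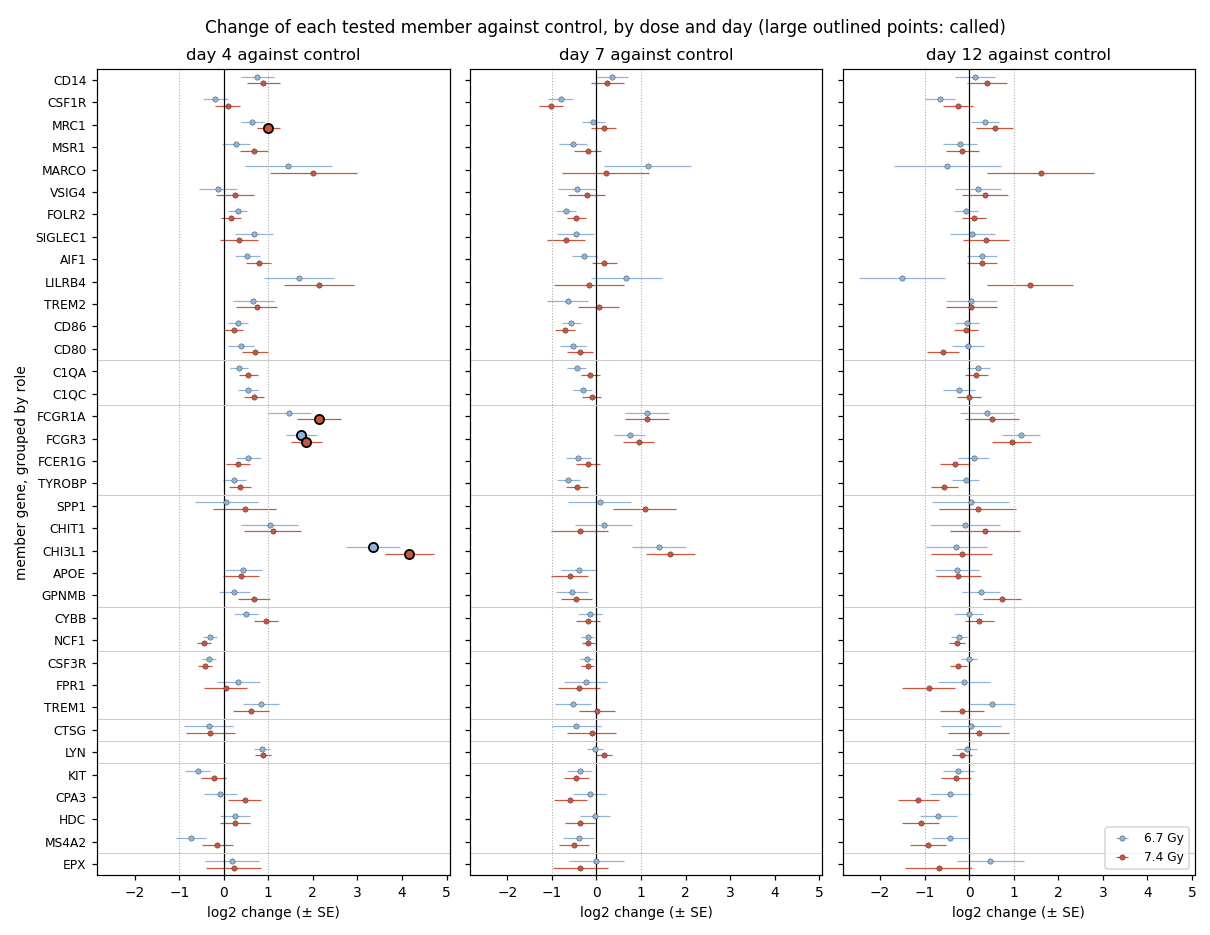
Log2 change against the 4 controls (x axis, ± standard error) of the 36 genes tested (y axis, grouped by role) on days 4, 7 and 12, in blue after 6.7 Gy and in red after 7.4 Gy; large outlined points were called. On day 4 most points lie right of 0 and CHI3L1 lies farthest, at 3.35 and 4.16, and on days 7 and 12 no point is outlined.

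By days 7 and 12, no gene of the list was called against control. The limma count was 0 of 36 in each of the 4 comparisons, where 0.387% and 0.469% of all genes were called on day 7 after 6.7 and 7.4 Gy, and 0.0136% and 0.0204% on day 12. With an unadjusted limma p under 0.05 and a 2-fold change, 2 of 36 genes passed on day 7 after 6.7 Gy (FCGR1A and CHI3L1) and 3 after 7.4 Gy (those and CSF1R). On day 12, 1 passed after 6.7 Gy (FCGR3) and 2 after 7.4 Gy (CPA3 and HDC). Of all genes, 2.61%, 2.88%, 1.84% and 1.69% passed in these 4 comparisons. The counts of the list are small, and whether they differ from the shares of all genes was not tested. The two-group t-test of the study's methods, called the methods' t-test here, also called 0 in each. On day 7 the median change of the list was below 0 at both doses, -0.29 and -0.20, with 27 and 25 of 36 genes below control. On day 12 the medians were -0.03 and -0.04, close to 0, and both were above 0 (0.33 and 0.18) when the arrays were scaled to the spike-in probes, a scaling that moved the median of all genes to 0.43 and 0.21. Each day 12 group held 2 animals, so a change had to be large to pass.

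CHI3L1 encodes a secreted chitinase-like protein made by macrophages, neutrophils and, in inflamed colon, epithelial cells. Its levels in the controls were -0.53, -0.99, -0.20 and -0.41. On day 4 they were 2.45, 2.72 and 3.28 after 6.7 Gy, with 1 animal missing, and 4.41, 2.13, 4.89 and 3.08 after 7.4 Gy. All 7 irradiated values lay above all 4 control values, with a wider spread at 7.4 Gy. CHI3L1 rose 10.2-fold after 6.7 Gy (log2 change 3.35, SE 0.60, limma adjusted p = 0.00319) and 17.9-fold after 7.4 Gy (4.16, SE 0.55, adjusted p = 0.000116). It was the largest change of the 36 genes at both doses. A dimmer probe of the same gene gave all 8 irradiated animals and the same direction, 18.9-fold (adjusted p = 0.00136) and 27.1-fold (adjusted p = 0.000153). All controls lay at position 1 of their slides and all 7.4-Gy day 4 arrays at position 2. With array position on the slide as a block, the 7.4-Gy change of the brighter probe was 3.46 with a limma adjusted p of 0.0669.

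On day 7 CHI3L1 stood at 1.24, 0.63 and 0.74 after 6.7 Gy, with 1 animal missing, and at 2.36, 0.55, -0.27 and 1.85 after 7.4 Gy. The 6.7-Gy values still lay above every control, and 1 animal of the 7.4-Gy group was back among them. The changes of 2.65-fold and 3.15-fold did not pass (adjusted p = 0.459 and 0.231). The dimmer probe, with no animal missing, gave larger changes, 5.67-fold and 4.44-fold, which did not pass either (limma adjusted p = 0.13 and 0.198). In the 6.7-Gy animal missing by the brighter probe it read 2.85, the highest of that group. On day 12 the levels by the brighter probe were -1.27 and -0.38 after 6.7 Gy and -0.56 and -0.85 after 7.4 Gy, within or just below the control range.

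Fc receptors bind antibody-coated particles. Of 4 genes for Fc receptors and signalling adaptors, 1 was called on day 4 after 6.7 Gy and 2 after 7.4 Gy. Of all genes, 4.08% and 8.02% were called there. FCGR3 encodes the low-affinity IgG receptor CD16 of nonclassical monocytes, macrophages and natural killer cells. The controls read -3.51, -3.52, -3.96 and -3.85. On day 4 the 6.7-Gy animals read -1.99, -1.85, -1.75 and -2.31 and the 7.4-Gy animals -2.57, -1.99, -1.11 and -1.75. Every irradiated animal on day 4 was above every control. FCGR3 rose 3.33-fold after 6.7 Gy (log2 change 1.74, SE 0.35, limma adjusted p = 0.00529) and 3.62-fold after 7.4 Gy (1.85, SE 0.35, adjusted p = 0.00121). Where a slide held both a control and a day 4 array, the differences within the slide were 1.76 and 1.21 at 6.7 Gy and 1.39 and 1.86 at 7.4 Gy. With another background correction, normexp, the changes shrank to 0.89 and 0.95, under 2-fold.

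On the later days FCGR3 lay above the controls in most animals. It read -2.83, -2.73, -3.34 and -2.95 on day 7 after 6.7 Gy and -1.56, -2.82, -2.96 and -3.69 after 7.4 Gy. On day 12 it read -2.11 and -2.99 after 6.7 Gy and -2.50 and -3.02 after 7.4 Gy. Apart from 1 animal of the 7.4-Gy day 7 group, all of these values lay above the 4 controls. None of the 4 changes, between 0.75 and 1.16 log2, passed the test (adjusted p from 0.281 to 0.69).

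FCGR1A encodes the high-affinity IgG receptor CD64 of monocytes and macrophages, which interferon gamma is known to raise. The controls were at -2.02, -2.06, -1.37 and -1.90. After 6.7 Gy the day 4 animals were at -0.61, -0.21, -0.38 and -0.33, and after 7.4 Gy at -0.74, 0.02, 1.34 and 0.52. All 8 irradiated animals were above the controls, but the 2 doses fell on different sides of the test. At 7.4 Gy FCGR1A rose 4.37-fold (log2 change 2.13, SE 0.49, limma adjusted p = 0.00533), while at 6.7 Gy the change was 2.75-fold (1.46, SE 0.49) with an adjusted p of 0.0653. The difference between the doses, 0.67 log2, had an adjusted p of 0.901. On the 2 slides with a control and a 7.4-Gy array the differences were 0.64 and 1.92, and with array position as a block the change was 2.07 with an adjusted p of 0.121.

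On day 7 FCGR1A lay at -0.86, -0.51, -0.80 and -0.66 after 6.7 Gy and at 0.61, -0.73, -2.39 and -0.28 after 7.4 Gy. The 6.7-Gy animals kept together above the controls, whereas the 7.4-Gy group ran from above all of them to below all of them. Changes were 2.19-fold (adjusted p = 0.468) and 2.21-fold (adjusted p = 0.381). The day 12 animals read -0.68 and -2.19 after 6.7 Gy and -1.87 and -0.80 after 7.4 Gy, across the control range and beyond it. The signalling partners of these receptors moved less. FCER1G, the common gamma chain, changed by 0.55 and 0.32 log2 on day 4 (adjusted p = 0.229 and 0.457), and TYROBP, the adaptor DAP12 of activating myeloid receptors, by 0.24 and 0.36 (adjusted p = 0.578 and 0.329).

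**Figure D2:**
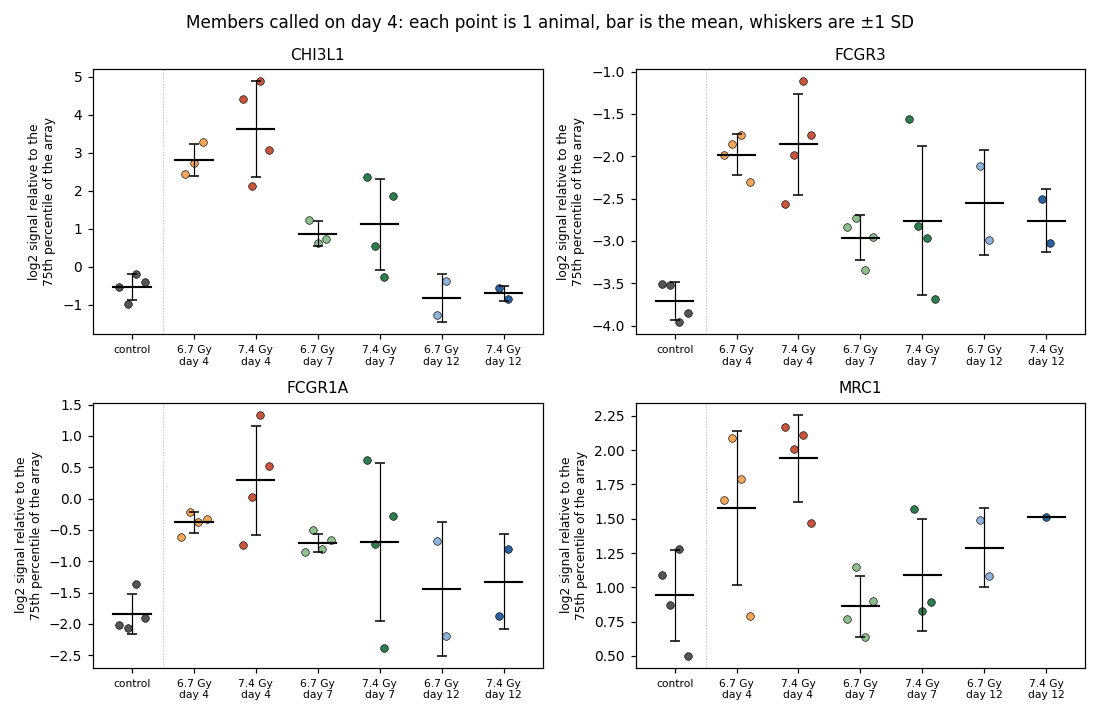
Level of CHI3L1, FCGR3, FCGR1A and MRC1 in each animal (log2 signal relative to the 75th percentile of its array) by group, with the mean and ± 1 SD. In CHI3L1 and FCGR3 both day 4 groups lie above the controls, and in MRC1 the lowest 6.7-Gy day 4 animal, at 0.79, lies within the control range.

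The macrophage and monocyte receptors were 13 measured genes, of which 1 was called against control. This was on day 4 after 7.4 Gy, 7.69%, where 8.02% of all genes were called. MRC1, the mannose receptor CD206 of resident tissue macrophages, read 1.09, 0.87, 1.28 and 0.50 in the controls and 2.17, 2.01, 2.11 and 1.47 on day 4 after 7.4 Gy. The 7.4-Gy animals all lay above the controls. After 6.7 Gy the values were 1.64, 2.09, 1.79 and 0.79, so that 3 animals lay above the controls and replicate 4 among them. MRC1 rose 2.01-fold after 7.4 Gy (log2 change 1, limma adjusted p = 0.0122), just past the 2-fold minimum, and its change of 0.64 after 6.7 Gy had an adjusted p of 0.127. The call was lost under 9 of 23 alternative settings, among them slide as a block (0.92, adjusted p = 0.0653). Without control replicate 2 or 4, or 7.4 Gy day 4 replicate 1, 2 or 3, its change lay between 0.86 and 0.98, under 2-fold, with an adjusted p of 0.0442 or less. Its other probes gave 0.97 (adjusted p = 0.0494) and 0.92 (adjusted p = 0.0301), below the 2-fold minimum. On day 7 it read 0.77, 1.15, 0.64 and 0.90 after 6.7 Gy and 1.57, 0.83 and 0.89 after 7.4 Gy, and on day 12 1.49 and 1.08 after 6.7 Gy and 1.51 in the 1 animal measured after 7.4 Gy.

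CD14, the coreceptor for bacterial lipopolysaccharide on monocytes and macrophages, was at -0.14, 0.29, 0.56 and 0.49 in the controls. On day 4 it was at 1.35, 1.25, 1.61 and -0.01 after 6.7 Gy and at 1.66, 0.59, 1.23 and 1.28 after 7.4 Gy. Replicate 4 of the 6.7-Gy group lay within the control range and the other 7 irradiated animals lay above it. The changes were 0.75 (SE 0.37, limma adjusted p = 0.207) and 0.89 (adjusted p = 0.0951) and did not pass. On day 7 its levels were 0.64, 0.80, 0.48 and 0.64 after 6.7 Gy and 1.5, 0.63, 0.35 and -0.31 after 7.4 Gy, and on day 12 they were 1.13 and -0.25 after 6.7 Gy and 0.72 and 0.69 after 7.4 Gy, overlapping the controls in all but the last group.

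CSF1R, the receptor for colony-stimulating factor 1 on which macrophage survival depends, followed another course. The controls read 1.17, 1.31, 1.36 and 0.46, and on day 4 the animals read 0.98, 1.42, 1.09 and 0.06 after 6.7 Gy and 1.07, 1.28, 1.37 and 0.93 after 7.4 Gy. These ranges overlapped, and the changes were -0.19 and 0.09 (adjusted p = 0.723 and 0.858). On day 7 it read 0.33, 0.68, -0.26 and 0.33 after 6.7 Gy and 0.55, 0.29, -0.28 and -0.35 after 7.4 Gy. Against 3 of the 4 controls all of these were low, and control replicate 4 lay among them. The changes of -0.80 and -1.02 did not pass (limma adjusted p = 0.294 and 0.122). On day 12 it read 0.67 and 0.19 after 6.7 Gy and 0.85 and 0.81 after 7.4 Gy, inside or just below the control range.

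The other 10 receptors had no call against control on any day. On day 4 after 7.4 Gy all 13 receptors lay above control, with changes between 0.09 and 2.14 and a median of 0.70, and after 6.7 Gy 11 of 13 did, with a median of 0.53. AIF1, a calcium-binding protein of macrophages (also known as IBA1), was 1.73-fold higher after 7.4 Gy with an adjusted p of 0.0481, under the 2-fold minimum. A dimmer AIF1 probe, above background on all 24 arrays, gave 1.46-fold (limma adjusted p = 0.189). LILRB4, an inhibitory receptor of monocytes and macrophages, had the largest change of the receptors, 1.69 and 2.14, but its controls ran from -4.42 to -0.43, and neither change passed (adjusted p = 0.185 and 0.0623). MARCO, a scavenger receptor for bacteria, was above background on none of the 4 controls and on 3 of 4 arrays of each day 4 group. The remaining array of each group, at -7.70 and -8.06, lay below every control (-7.44 to -5.97), so no size is given for its change, and it was not called (adjusted p = 0.375 and 0.157). VSIG4, a complement receptor of resident macrophages, was at -0.13 and 0.25, and FOLR2, a folate receptor of resident macrophages, at 0.31 and 0.16, with no adjusted p under 0.392. The costimulatory ligands CD86 (0.32 and 0.22) and CD80 (0.39 and 0.70), the scavenger receptor MSR1 (0.28 and 0.68), the lipid receptor TREM2 (0.66 and 0.74) and the sialic acid receptor SIGLEC1 (0.68 and 0.34) had day 4 changes with adjusted p between 0.0941 and 0.613.

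C1QA and C1QC encode chains of complement C1q, which macrophages supply in most tissues. C1QC read 4.10, 4.65, 4.51 and 4.09 in the controls, and on day 4 4.81, 4.87, 5.08 and 4.74 after 6.7 Gy and 4.95, 4.77, 5.22 and 5.13 after 7.4 Gy. By this probe neither day 4 group overlapped the controls, although the changes were small, 0.54 (limma adjusted p = 0.13) and 0.68 (1.60-fold, adjusted p = 0.037). A dimmer C1QC probe, above background on all 24 arrays, gave 0.25 (adjusted p = 0.562) and 0.47 (adjusted p = 0.192). By the dimmer probe both day 4 groups overlapped the controls, which ran from -0.57 to 0.22. On day 7 C1QC read 4.22, 4.39, 3.52 and 3.98 after 6.7 Gy and 4.91, 3.87, 4.26 and 3.85 after 7.4 Gy, around the controls. C1QC on day 12 read 4.11 in the 1 animal measured after 6.7 Gy, and 4.36 and 4.31 after 7.4 Gy.

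C1QA read 5.42, 5.62, 6.11 and 5.57 in the controls, 5.96, 6.17, 6.27 and 5.70 on day 4 after 6.7 Gy and 6.10, 6.15, 6.58 and 6.11 after 7.4 Gy. Control replicate 3 lay within the irradiated range, and the changes of 0.34 and 0.55 had adjusted p of 0.318 and 0.0676. By day 7 C1QA read 5.20, 5.59, 5.05 and 5.11 after 6.7 Gy and 6.12, 5.45, 5.59 and 4.99 after 7.4 Gy. The day 12 values, 6.02 and 5.74 after 6.7 Gy and 5.76 and 5.92 after 7.4 Gy, lay within the control range.

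The other macrophage products had no call. CHIT1, the chitinase of lipid-laden macrophages, changed by 1.03 and 1.1 log2 on day 4 (adjusted p = 0.332 and 0.241), with control replicate 4 at -0.79 far above the other controls at -3.48 to -3.11. APOE, the lipid carrier (0.44 and 0.39), GPNMB, a glycoprotein of lipid-laden macrophages (0.24 and 0.68), and SPP1, the matrix protein osteopontin (0.06 and 0.47), had adjusted p between 0.18 and 0.97.

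The phagocyte oxidase makes superoxide in neutrophils and macrophages from the membrane subunit CYBB and cytosolic subunits such as NCF1. CYBB read -0.33, -0.29, -0.37 and -0.07 in the controls, 0.20, -0.01, 0.49 and 0.28 on day 4 after 6.7 Gy and 0.93, 0.38, 1.18 and 0.23 after 7.4 Gy. All 8 irradiated animals lay above the controls. The change after 7.4 Gy was 1.93-fold (log2 0.95, limma adjusted p = 0.017), just under the minimum, and after 6.7 Gy 0.51 (adjusted p = 0.241). Day 7 values were -0.78, 0.33, -0.76 and -0.41 after 6.7 Gy and 0.20, -0.28, -0.72 and -1.05 after 7.4 Gy. Day 12 values of -0.11 and -0.44 after 6.7 Gy and of -0.05 and -0.03 after 7.4 Gy were near the controls. NCF1 lay on the other side of control on day 4, at -0.31 (adjusted p = 0.194) and -0.44 (1.36-fold lower, adjusted p = 0.0416), also under 2-fold.

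LYN, a kinase that signals below Fc receptors and integrins in myeloid and B cells, separated the day 4 animals cleanly at a small size. The controls read 1.29, 0.98, 0.96 and 1.1, against 1.90, 1.82, 2.12 and 1.92 after 6.7 Gy and 1.69, 1.76, 2.47 and 1.98 after 7.4 Gy on day 4. No day 4 value reached down to the controls. The changes were 1.81-fold (log2 0.86, SE 0.18, limma adjusted p = 0.0077) and 1.86-fold (0.89, adjusted p = 0.00244), past the adjusted p and under 2-fold. On day 7 LYN read 0.88, 1.33, 1.14 and 0.81 after 6.7 Gy and 1.62, 1.36, 0.79 and 1.23 after 7.4 Gy, and on day 12 1.17 and 0.88 after 6.7 Gy and 0.80 and 1.03 after 7.4 Gy, around the control range. Counted without a fold minimum, the list had 3 genes higher and 0 lower on day 4 after 6.7 Gy, where 5.39% of all genes were higher and 5.41% lower, and 8 higher and 2 lower after 7.4 Gy, where 10.3% were higher and 11.4% lower.

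**Figure D3:**
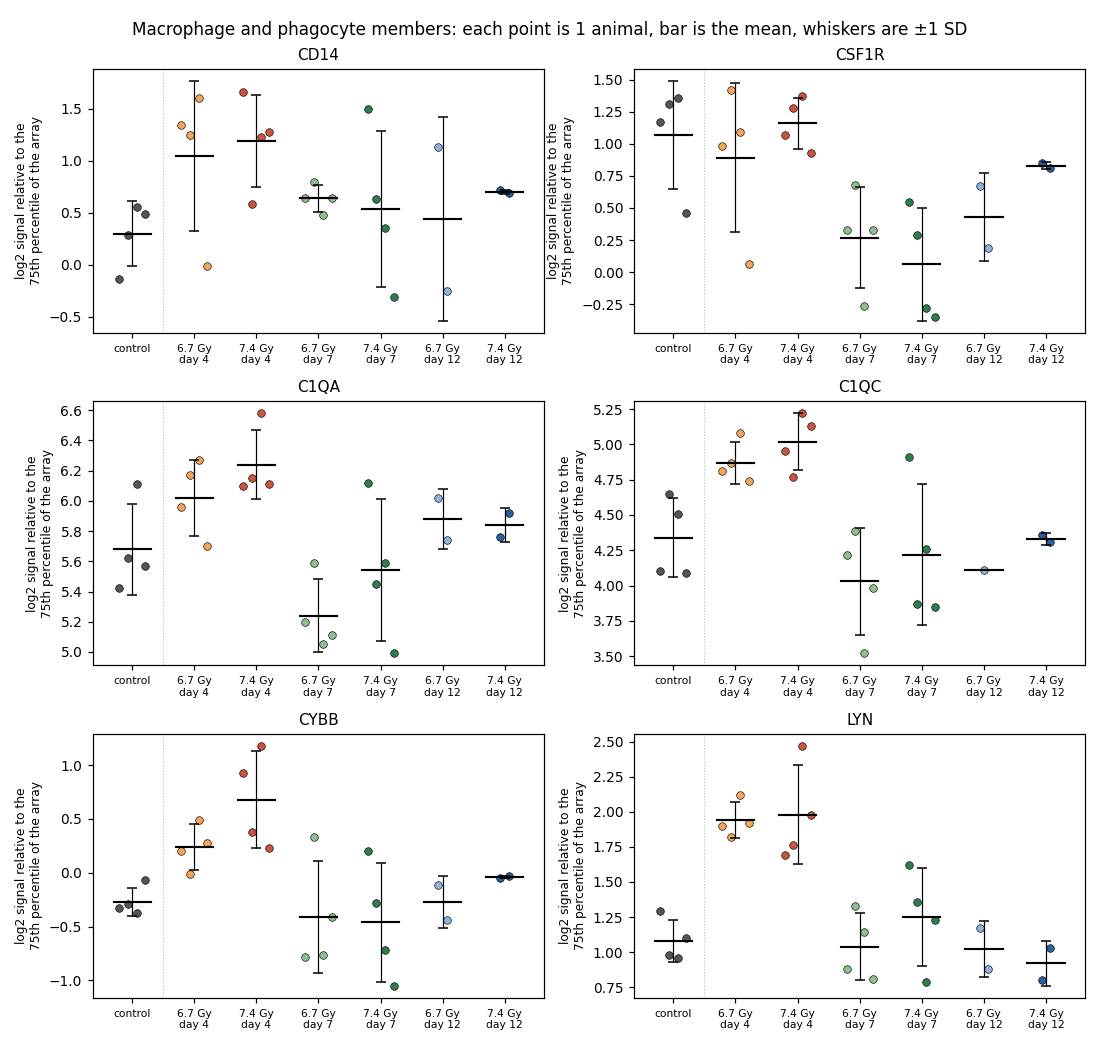
Level of CD14, CSF1R, C1QA, C1QC, CYBB and LYN in each animal (log2 signal relative to the 75th percentile of its array) by group, with the mean and ± 1 SD. The day 4 groups of C1QC (brighter probe), CYBB and LYN do not overlap the controls, and CSF1R is lowest on day 7.

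Of the neutrophil genes, some were not detected. FPR2, a receptor for formyl peptides, lay between -7.82 and -5.31 and MPO, the peroxidase of neutrophil granules, between -8.24 and -6.21, and neither was above background on any of the 24 arrays. CTSG, cathepsin G of the same granules, was above background on 9 arrays, with day 4 changes of -0.34 and -0.30 (adjusted p = 0.752 and 0.741). FPR1, the main formyl peptide receptor, read -1.29, -2.36, -1.99 and -2.18 in the controls, -1.28, -0.30, -1.79 and -3.13 on day 4 after 6.7 Gy and -1.83, -2.18, -1.24 and -2.41 after 7.4 Gy. The groups overlapped, with changes of 0.33 and 0.04 (limma adjusted p = 0.717 and 0.966). On day 7 it read -1.51, -2.55, -2.75 and -1.96 after 6.7 Gy and -2.85, -2.86, -1.44 and -2.21 after 7.4 Gy, and on day 12 -1.41 and -2.75 after 6.7 Gy and -2.89 and -2.84 after 7.4 Gy. Both 7.4-Gy day 12 animals lay below the controls, by 0.91 log2 on average (adjusted p = 0.83). TREM1, which amplifies inflammatory signals in neutrophils and monocytes, changed by 0.83 and 0.61 on day 4 (adjusted p = 0.202 and 0.31).

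CSF3R, the receptor for granulocyte colony-stimulating factor on neutrophils and their precursors, gave opposite answers by its 2 probes. The brighter probe read -1.62, -1.70, -1.95 and -1.81 in the controls, -2.01, -1.88, -2.18 and -2.34 on day 4 after 6.7 Gy and -2.42, -1.97, -2.05 and -2.34 after 7.4 Gy. It was lower at both doses, by -0.33 (limma adjusted p = 0.15) and by -0.42 (1.34-fold, adjusted p = 0.0451). The dimmer probe, above background on 23 arrays, read -4.29, -4.73, -4.31 and -4.30 in the controls, -2.91, -2.88, -2.44 and -3.92 on day 4 after 6.7 Gy and -2.08, -2.97, -2.69 and -3.32 after 7.4 Gy. All 8 irradiated values lay above the controls, and this probe rose 2.58-fold (log2 1.37, adjusted p = 0.0116) and 3.12-fold (1.64, adjusted p = 0.00147). Under normexp its changes were 0.47 (adjusted p = 0.225) and 0.66 (adjusted p = 0.0566). The 6.7-Gy change of the CSF3R dimmer probe also missed the threshold by the methods' t-test (adjusted p = 0.0898) and in a limma fit of only the groups compared (adjusted p = 0.0502). The probes were not mapped to transcripts, so a direction for CSF3R as a gene cannot be given.

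After day 4 the brighter CSF3R probe read -1.94, -1.91, -1.96 and -2.13 on day 7 after 6.7 Gy, -2.11, -2.06, -1.64 and -2.07 after 7.4 Gy, and on day 12 -1.67 and -1.87 after 6.7 Gy and -1.81 and -2.21 after 7.4 Gy. The dimmer probe read -5.16, -4.37, -4.62 and -5.59 on day 7 after 6.7 Gy, -4.60, -3.86, -4.52 and -3.74 after 7.4 Gy, and on day 12 -4.74 and -4.80 after 6.7 Gy and -4.18 and -4.54 after 7.4 Gy. No change from control passed at either probe on these days.

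**Figure D4:**
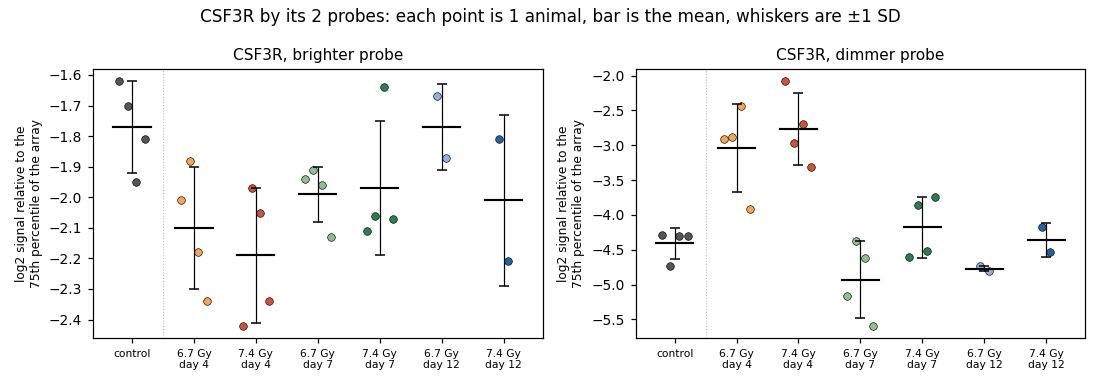
Level of CSF3R in each animal by group for its brighter probe (left) and dimmer probe (right), as log2 signal relative to the 75th percentile of the array, with the mean and ± 1 SD; the 2 y axes have different ranges. On day 4 the brighter probe lies at or below the controls, between -2.42 and -1.88, and the dimmer probe above them, between -3.92 and -2.08.

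Of the 4 mast cell genes measured, 1 lay above and 3 below control on day 4 after 6.7 Gy (median -0.33 log2), and 2 above and 2 below after 7.4 Gy (median 0.06). The differences after 7.4 Gy lay between -0.22 and 0.47 log2, the highest in CPA3. Of these genes, 0 were called against control at either dose on any day; 2 of them (CPA3 and HDC) had an unadjusted p under 0.05 with a 2-fold change, on day 12 after 7.4 Gy, and the methods' t-test called none. KIT, the stem cell factor receptor that mast cells share with the pacemaker cells of gut muscle, read 1.08, 0.80, 1.08 and 0.46 in the controls, 0.50, 0.92, 0.43 and -0.74 on day 4 after 6.7 Gy and 0.69, 1.21, 0.48 and 0.16 after 7.4 Gy. Its later values were 0.31, 0.51, 0.58 and 0.51 on day 7 after 6.7 Gy, 0.33, 0.59, 0.58 and 0.13 after 7.4 Gy, and on day 12 0.80 and 0.43 after 6.7 Gy and 0.30 and 0.81 after 7.4 Gy. By this brighter probe its mean was below control in all 6 groups, by between -0.58 and -0.22 log2, with overlapping values and adjusted p of 0.195 or more. A dimmer KIT probe, above background on 14 of 24 arrays, lay above control on day 7 after 7.4 Gy (0.05) and on day 12 after 6.7 Gy (0.21). In the other groups it lay below control.

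CPA3, the carboxypeptidase of mast cell granules, read -0.72, -0.64, -0.14 and -0.05 in the controls. On day 4 it read -0.01, 0.35, -0.82 and -1.39 after 6.7 Gy and -0.01, 0.39, 0.16 and -0.21 after 7.4 Gy, and on day 7 -0.15, -0.72, -0.65 and -0.61 after 6.7 Gy and -0.63, -0.98, -0.10 and -2.18 after 7.4 Gy. These groups overlapped the controls. On day 12 it read -0.62 and -1 after 6.7 Gy and -1.81 and -1.24 after 7.4 Gy. The latter pair lay below all controls, 2.20-fold lower on average (log2 -1.14) with a limma adjusted p of 0.616.

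HDC, the histidine decarboxylase that makes histamine, read -2.80, -2.66, -2.32 and -2.30 in the controls, -2.11, -2.16, -1.92 and -2.86 on day 4 after 6.7 Gy and -3.28, -1.72, -1.71 and -2.32 after 7.4 Gy. On day 7 it read -2.13, -2.50, -2.97 and -2.65 after 6.7 Gy and -2.52, -2.65, -2.53 and -3.84 after 7.4 Gy. Up to day 7 its groups overlapped the controls. On day 12 all 4 animals, at -2.86 and -3.56 after 6.7 Gy and at -3.46 and -3.75 after 7.4 Gy, lay below the controls, by -0.69 (limma adjusted p = 0.789) and by -1.09 (2.12-fold, adjusted p = 0.577). MS4A2, the beta chain of the IgE receptor, read -4.13, -3.52, -2.95 and -3.05 in the controls, -4.37, -3.90, -3.96 and -4.31 on day 4 after 6.7 Gy, -4.19, -2.72, -3.33 and -3.96 after 7.4 Gy, -3.56, -4.31, -4.19 and -3.17 on day 7 after 6.7 Gy and -3.55, -4.12, -3.51 and -4.50 after 7.4 Gy. On day 12 it read -3.62 and -4.03 after 6.7 Gy and -4.02 and -4.65 after 7.4 Gy, and no comparison with control passed (-0.92 on day 12 after 7.4 Gy, adjusted p = 0.684). The summed signal of KIT, CPA3, HDC and MS4A2, each array's 75th percentile being 1, was 2.62 to 3.35 in the controls, 1.17 to 3.46 and 2.24 to 4.09 on day 4 after 6.7 and 7.4 Gy, 2.26 to 2.45 and 1.43 to 2.69 on day 7, and 1.99 to 2.61 and 1.67 to 2.29 on day 12. The sums of the 6.7-Gy day 7 group and of both day 12 groups lay below all controls. KIT, which is not particular to mast cells, made up the largest part of this sum. Its mean level over the 24 arrays was 0.54 log2, against -0.58 for CPA3, -2.65 for HDC and -3.82 for MS4A2. The summed smooth muscle signal, of ACTA2 and DES, was 250 to 374 in the controls, 219 to 294 and 126 to 326 on day 7 and 49.9 to 219 and 208 to 348 on day 12. A value marked as an outlier was left out of a sum, which lowers the sum of that animal. Tested singly, the 2 smooth muscle genes changed by -0.42 and -0.31 log2 on day 12 after 6.7 Gy. The part of smooth muscle in the mast cell values was not tested.

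EPX, the eosinophil peroxidase, was above background on 4 of 24 arrays, with levels from -8.33 to -4.62, and no change of it passed. AQP10, a water channel for which no role in these cells is known here, was above background on 1 array, that of 7.4 Gy day 4 replicate 4, at -3.85.

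**Figure D5:**
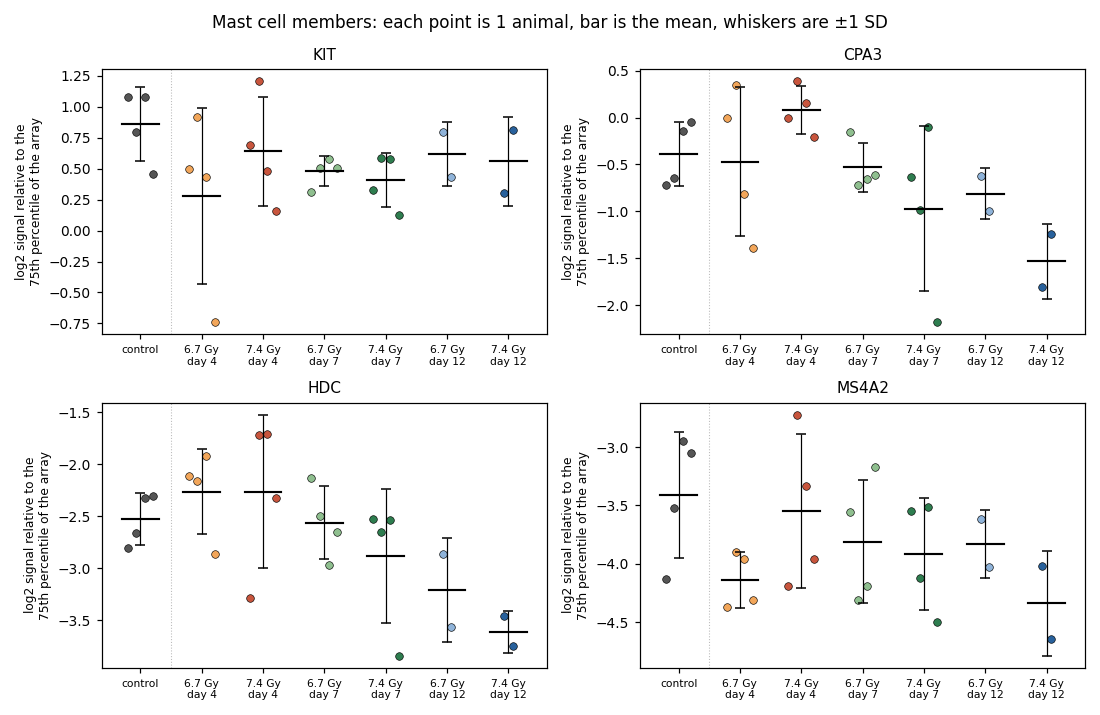
Level of KIT, CPA3, HDC and MS4A2 in each animal (log2 signal relative to the 75th percentile of its array) by group, with the mean and ± 1 SD. The day 12 animals of HDC, at -2.86 or below, lie under all controls, and the 2 animals of the 7.4-Gy day 12 group lie lowest on average in CPA3, HDC and MS4A2.

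The controls were not sampled on days 7 and 12, so the irradiated groups were also compared with each other, both doses together. From day 4 to day 7 the list moved down. Changes were below 0 in 32 of 36 genes, with a median of -0.81 log2 against 0.02 over all genes. With a fold minimum of 2, limma called 3 genes lower and none higher, 8.33%, where 4.84% of all genes were called, 2.57% higher and 2.28% lower. Without a fold minimum, 21 of 36 genes were lower and 0 higher, where 13.6% of all genes were lower and 14% higher. The receptors made up 10 of the 21, all 13 of them with a change below 0 and a median of -0.86. The count with the 2-fold minimum depended on single animals, from 1 without 6.7 Gy day 7 replicate 4 to 8 without either 7.4 Gy day 4 replicate 4 or 7.4 Gy day 7 replicate 1, and it was 7 without 6.7 Gy day 4 replicate 4 and 2 without 7.4 Gy day 7 replicate 4. All day 4 arrays lay at positions 1 and 2 of their slides and all day 7 and day 12 arrays at positions 3 and 4, so in this comparison and the next, day and array position cannot be told apart.

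CHI3L1 fell 4.67-fold from day 4 to day 7 (log2 change -2.22, SE 0.42, limma adjusted p = 0.00115). SIGLEC1, a sialic acid receptor that interferon is known to raise on macrophages, read 2.19, 1.49, 2.27 and 3.36 on day 4 after 6.7 Gy and 2.91, 1.25, 1.73 and 2.10 after 7.4 Gy. On day 7 it read 0.68, 2.45, 0.94 and 0.66 and then 0.98, 1.25, 0.71 and 0.93 at these doses. All but 1 day 7 animal were at or below the lowest day 4 animal, and SIGLEC1 fell 2.12-fold (log2 change -1.09, SE 0.29, adjusted p = 0.011). Without 6.7 Gy day 4 replicate 4 or 7.4 Gy day 4 replicate 1 the change of SIGLEC1 was -0.91 or -0.93, under 2-fold, and without 6.7 Gy day 7 replicate 4 it rounded to -1 but fell short of 2-fold, so the call was lost under each of these omissions. It was also lost under normexp (-0.97, adjusted p = 0.0273). Its controls, at 1.14, 1.4, 1.95 and 2.11, lay between the days.

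LILRB4 read -0.62, -1.69, -0.02 and 0.11 on day 4 after 6.7 Gy, 1.16, -0.95, 0.87 and -1.49 after 7.4 Gy, and -1.43, 0.12, -1.87 and -3.13 and then -2, -1.68, -2.72 and -3.27 on day 7. The days overlapped. LILRB4 fell 3.18-fold (log2 change -1.67, SE 0.56, limma adjusted p = 0.0344), a call lost under 9 of 29 alternative settings, each the omission of a single animal. These were 6.7 Gy day 4 replicates 3 and 4, 7.4 Gy day 4 replicates 1 and 3, 6.7 Gy day 7 replicates 1, 3 and 4 and 7.4 Gy day 7 replicates 3 and 4, and the LILRB4 change then lay between -1.69 and -1.41 with adjusted p up to 0.0765. Of the 18 genes that passed only without the fold minimum, LYN (-0.81, adjusted p = 0.00024), CD86 (-0.91, adjusted p = 0.000372), FOLR2 (-0.80, adjusted p = 0.00109), C1QC (-0.82, adjusted p = 0.00109) and C1QA (-0.74, adjusted p = 0.00138) had the smallest p. CSF1R (-0.86, SE 0.20, adjusted p = 0.00371), CYBB (-0.89, adjusted p = 0.00198), TYROBP (-0.83, adjusted p = 0.00195), CD80 (-0.99, adjusted p = 0.00181) and FCGR3 (-0.94, adjusted p = 0.00882) passed as well. The dimmer CSF3R probe fell 3.15-fold (adjusted p = 6.19e-05), while the brighter changed by 0.17 (adjusted p = 0.228).

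From day 4 to day 12, limma called 4 genes lower and none higher, 11.1%, where 7.36% of all genes were called, 4.02% higher and 3.34% lower. They were CHI3L1 (15.9-fold, log2 change -3.99, SE 0.49, adjusted p = 5.11e-05, days not overlapping), HDC (2.22-fold, -1.15, SE 0.29, adjusted p = 0.00783), FCGR1A (2.53-fold, -1.34, SE 0.43, adjusted p = 0.0274) and LILRB4 (3.96-fold, -1.98, SE 0.69, adjusted p = 0.0411). HDC is a mast cell gene, FCGR1A and LILRB4 are genes of monocytes and macrophages, and CHI3L1 has several cell sources. Under normexp the HDC change was -0.36 (adjusted p = 0.182). LILRB4 read -3.72 and -3.79 on day 12 after 6.7 Gy and 0.03 and -1.77 after 7.4 Gy, so that the 2 doses lay apart there (2.89 log2, adjusted p = 0.999). LYN fell by 0.99 log2, 1.98-fold (adjusted p = 0.000286), and CPA3 by 0.98 (1.97-fold, adjusted p = 0.0324), both just under 2-fold. With no fold minimum, 9 genes were lower and 0 higher, where 11.8% of all genes were lower and 14.3% higher. Without 6.7 Gy day 12 replicate 2 the count was 1, as HDC (-0.97, adjusted p = 0.051), FCGR1A (-0.96, adjusted p = 0.169) and LILRB4 (-1.97, adjusted p = 0.101) were lost. FCGR1A was also lost without 7.4 Gy day 12 replicate 1 (-1.07, adjusted p = 0.142). LILRB4 was lost under 11 of 25 alternative settings, 8 of them the omission of 1 animal (either 6.7 Gy day 12 animal, 7.4 Gy day 12 replicate 2, 6.7 Gy day 4 replicates 1, 3 and 4, and 7.4 Gy day 4 replicates 1 and 3), with adjusted p up to 0.182.

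No gene of the list was called between 7.4 and 6.7 Gy. Limma called 0 of 36 on each day, and 0% of all genes too. With an unadjusted p under 0.05 and a 2-fold difference, the counts were 0, 0 and 1 (LILRB4 on day 12), where 1.21%, 0.367% and 1.09% of all genes passed, and the methods' t-test called 0 on each day. On day 4 the difference was above 0 in 27 of 36 genes, with a median of 0.14 log2. The largest day 4 difference was that of CHI3L1, 0.81 (1.75-fold, adjusted p = 0.903). A dose effect that changed from day 4 to day 7 or to day 12 was not called for any of the 36 either.

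A wider list of 29 myeloid genes outside the 53 was also chosen with earlier results of these data known. Of its genes, 23 had a probe and 22 were tested. Limma called 4 of them higher and none lower on day 4 after 6.7 Gy and 8 higher and 1 lower after 7.4 Gy, with medians of 0.43 and 0.50 log2, beside the same 4.08% and 8.02% of all genes called. On days 7 and 12 no gene of this list was called against control. The largest change after 7.4 Gy was that of S100A8, a subunit of the calprotectin of neutrophils and monocytes. It read -4.78, -4.37, -6.30 and -4.62 in the controls and -2.09, -1.82, 1.47 and -3.19 on day 4 after 7.4 Gy, without overlap and with a wide spread. S100A8 rose 12.2-fold (log2 change 3.61, SE 1.14, limma adjusted p = 0.0312), a call lost under 8 of 23 alternative settings, among them the omission of control replicate 1, 3 or 4 or of 7.4 Gy day 4 replicate 3 (2.65, adjusted p = 0.113). S100A9, its partner, rose 4.69-fold (adjusted p = 0.0198), and 1.47 log2 (adjusted p = 0.0717) without the same irradiated animal. After 6.7 Gy the values of S100A8, -4.85, 0.34, -2.46 and -1.84, included 1 animal among the controls.

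TLR4, the lipopolysaccharide receptor that works with CD14, rose 2.09-fold after 6.7 Gy (log2 1.06, SE 0.24, limma adjusted p = 0.00942) and 2.61-fold after 7.4 Gy (1.38, adjusted p = 0.000598). Its controls, -1.29, -1.61, -1.57 and -1.85, lay below all day 4 animals, at -0.35, -0.38, -0.46 and -0.87 and at -0.03, -0.42, 0.40 and -0.74. CLEC7A, the beta-glucan receptor, rose 3.40- and 4.02-fold (adjusted p = 0.0323 and 0.00892), CLEC4A, an inhibitory lectin of monocytes and dendritic cells, 2.30- and 2.64-fold (adjusted p = 0.0188 and 0.00364), and LST1, a small protein of monocytes, 2.21- and 2.23-fold (adjusted p = 0.0277 and 0.0145). TLR2, the lipoprotein receptor, rose 2.06-fold and LYZ, lysozyme, 2.15-fold after 7.4 Gy (adjusted p = 0.0195 and 0.0445). Several of these calls were close to the limit. Of 23 alternative settings, CLEC7A and LST1 lost the 6.7-Gy call under 9 each and CLEC4A under 5, and LYZ lost the 7.4-Gy call under 11 and TLR2 under 6, in each gene including the omission of single controls or irradiated animals. TLR4 lost the 6.7-Gy call under 3 (0.98, under 2-fold, without control replicate 4) and kept the 7.4-Gy call under all 23. The 1 gene called lower was CSF1, the ligand of CSF1R. It read 1.25, 0.70, 0.55 and 0.39 in the controls, -0.13, -0.35, -0.06 and 0.08 on day 4 after 6.7 Gy and -0.43, -0.50, -0.25 and -0.52 after 7.4 Gy. All 8 irradiated animals lay below the controls, and CSF1 fell 2.21-fold after 7.4 Gy (log2 -1.15, SE 0.16, adjusted p = 9.66e-05), with -0.84 after 6.7 Gy (adjusted p = 0.00339). Without control replicate 1, the highest, the CSF1 change after 7.4 Gy was -0.97 (adjusted p = 0.000228), under 2-fold.

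Signals of marker genes of several cell types also differed from control on day 4. Cell number and RNA per cell cannot be told apart in them either. The summed signal of 6 colon epithelium genes was 567 to 727 in the controls, 256 to 385 on day 4 after 6.7 Gy and 169 to 316 after 7.4 Gy, and 518 to 660 on day 7. KRT20, CDX2 and LGALS4 were called lower at both doses on day 4 and VIL1 after 7.4 Gy. The summed signal of 4 macrophage genes (CD14, CSF1R, C1QA and C1QC) was 63.1 to 96 in the controls, 80.6 to 116 and 102 to 138 on day 4, and 46.9 to 72.5 and 47.8 to 104 on day 7. C1QA and C1QC made up most of the macrophage sum, so it says little about CD14 and CSF1R. The mean levels over the 24 arrays were 5.76 and 4.47 log2 for the C1q genes against 0.72 and 0.68 for CD14 and CSF1R. Fibroblast genes, 5 in number, summed to 106 to 256 in the controls, 156 to 194 on day 4 after 6.7 Gy and 238 to 342 after 7.4 Gy, and 5 T lymphocyte genes to 3.83 to 10.8, 4.47 to 8.44 and 4.49 to 6.5. The summed signal of 4 endothelial genes was 2.92 to 3.71 in the controls, 3.84 to 5.31 on day 4 after 6.7 Gy, above all controls, and 1.78 to 6.92 after 7.4 Gy, where VWF was called higher (2.35-fold, limma adjusted p = 0.000579). Values marked as outliers were left out of all these sums, which lowers the sum of that animal. Tested singly, the 4 endothelial genes changed by between 0.03 and 1.23 log2 on day 4 after 7.4 Gy. Of 3 red blood cell genes, HBB and ALAS2 were called lower on day 4 after 6.7 Gy and HBB after 7.4 Gy, with list medians of -2.72 and -1.85 log2, and HBB was also called lower on day 7 at both doses. On day 12, 1 of the 3 was called lower after 6.7 Gy. Their summed signal overlapped the controls on day 4, at 149 to 209 and 134 to 152 against 135 to 267. The part of these shifts in the day 4 changes of the myeloid genes was not tested.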

How the data were processed

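Total RNA from the colon of 24 rhesus macaques was labelled with Cy3 and hybridised to Agilent rhesus arrays, 1 per animal. The scanner intensities were used as deposited by the authors: per the file headers, the processed signal had its background subtracted and was adjusted by the Agilent Feature Extraction software. The authors also deposited tables of log2 raw and log2 normalized signal. The raw table equalled the scanner values within 0.001 log2 for 100% of the values compared, and the normalized table differed from them only by 1 shift per array and 1 per probe (largest residual 2.7e-06), which fits 75th percentile scaling with centring of each probe; its centring baseline is not stated.

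Spots marked as outliers (24 to 712 per array) were left out, spots of 1 probe averaged, and log2 processed signals reduced by the array's 75th percentile over 43603 transcript probes. No transcript spot was saturated. Probes well above background on at least 2 of 24 arrays were kept, 38229 in all, of which 38209 had a value in every comparison. Gene symbols came from the deposited tables, and 37 genes were found by symbol. MRC1 and FCGR1A stand in the files as MRC1L1 and FCGR1 and were matched by accession through a RefSeq gene table of the rhesus genome. The members, gene lists and tests were chosen with earlier results of these data known, and 1 gene of the wider list is not reported here.

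Limma 3.58.1 in R 4.3.3 fitted 1 mean per group over all 24 arrays, and 11 comparisons were two-sided with Benjamini-Hochberg adjustment over all probes. The fit was tested on simulated data. The text gives each animal's value for genes called against control and for defining genes of each cell type, and ranges and counts for the rest. Array number limits precision. Each limma p-value sets a difference between group means against the spread between animals within groups, estimated over all 24 arrays. With 1 array per animal, that spread includes differences between arrays. Alternatives were 4 other scalings or corrections (quantile, median, spike-in probes, normexp on the median spot signal with offset 50, since the files used hold no mean signal), the authors' normalized table, other filters, outlier spots kept (added after seeing the data), the methods' t-test, only the groups compared, blocks for slide, array position, scan day and replicate number, no fold minimum and leaving out each array.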

Additional observations from a re-analysis of the deposited data

Results flagged for a closer look

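Single animals stood far from the others of their group of 4, by a gap that filled most of the group's range, in 14 of 192 groups and genes compared, where chance gives about 1 in 20. Values are log2 signals relative to the array's 75th percentile. Among the macrophage genes, VSIG4 was 3.55 in 7.4 Gy day 7 replicate 1 against 1.37 to 1.46 in the others, and SIGLEC1 was 2.45 in 6.7 Gy day 7 replicate 2 against 0.66 to 0.94. CD80 was -4.3 in that same animal against -4.77 to -4.73. AIF1 (2.22 against 1.53 to 1.61) and C1QA (6.58 against 6.10 to 6.15) were both high in 7.4 Gy day 4 replicate 3. TREM2 was 1.47 in 6.7 Gy day 4 replicate 3 against -0.19 to 0.04. In the controls, TYROBP was 3.85 (others 3.18 to 3.25) and NCF1 8.27 (others 7.45 to 7.58) in replicate 1, and CHIT1 was -0.79 (others -3.48 to -3.11) in replicate 4. CSF3R was -1.64 in 7.4 Gy day 7 replicate 3 against -2.11 to -2.06, and HDC was -3.84 in 7.4 Gy day 7 replicate 4 against -2.65 to -2.52. CTSG (-6.83 in 6.7 Gy day 7 replicate 2) and EPX (-7.84 in 7.4 Gy day 4 replicate 1) were low on arrays where they were not above background, and AQP10 was -3.85 in 7.4 Gy day 4 replicate 4 against -6.99 to -6.74.

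The level after irradiation differed between days, by the direct limma comparison of the irradiated groups at both doses together, for 7 results. From day 4 to day 7 these were SIGLEC1 (-1.09 log2), LILRB4 (-1.67) and CHI3L1 (-2.22). From day 4 to day 12 they were LILRB4 (-1.98), FCGR1A (-1.34), CHI3L1 (-3.99) and HDC (-1.15). What these shifts come from was not tested.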

How the results depend on the processing

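No call of a gene of the list, or of the wider myeloid list, reversed under any setting run. The count on day 4 after 6.7 Gy (2) was 1 under normexp and 4 with spike-in scaling, and after 7.4 Gy (4) it was 2 under normexp, 9 with spike-in scaling, 2 with array position as a block and 10 (8 higher, 2 lower) without a fold minimum. From day 4 to day 7 (3) it was 6 with median scaling, 15 with spike-in scaling and 21 without a fold minimum, and from day 4 to day 12 (4) it was 9 without a fold minimum. Leaving out each array gave 2 to 2 and 3 to 6 on day 4, 0 to 0 in the other comparisons with control and between doses, 1 to 8 from day 4 to day 7 and 1 to 6 from day 4 to day 12. Spike-in scaling moved the all-gene median of day 4 to 0.20 and 0.26 and the split of all genes called higher and lower from 334 and 267 to 683 and 157 after 6.7 Gy, and from 605 and 575 to 1246 and 324 after 7.4 Gy; the medians of the list, 0.61 and 0.80, stayed above those of all genes. Median scaling gave 390 and 225, and 710 and 492. Same-numbered control and irradiated arrays had deviations that correlated between -0.12 and 0.15, so the numbers were not taken to pair the animals; with the replicate block the counts were 2 and 4 on day 4, 3 from day 4 to day 7 and 3 from day 4 to day 12, where LILRB4 (-2.17, adjusted p = 0.0529) and FCGR1A (-1.29, adjusted p = 0.0671) were lost. Array position could be a block in 5 of 11 comparisons. In the other 6, days 7 and 12 against control at each dose and days 7 and 12 against day 4, position and group cannot be told apart. Among the 5, all controls lay at position 1 and all 7.4-Gy day 4 arrays at position 2. That comparison shared no position, and with the block it rested on the 6.7-Gy day 4 arrays, which lay at both positions. FCGR1A from day 4 to day 12 was -0.96 (adjusted p = 0.169) without 6.7 Gy day 12 replicate 2, and HDC -0.97 (adjusted p = 0.051). FPR2, MPO and AQP10, and CTSG, EPX and MARCO on most arrays, were too dim for a change to be measured.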

Other observations

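Of the 39 genes with a probe, 15 had others, 16 probes in all, and most moved as the brighter probe did. TREM1 by its other probe was 0.90 (limma adjusted p = 0.0965) and 0.97 (adjusted p = 0.0484) log2 above control on day 4 and fell 2.28-fold from day 4 to day 7 (adjusted p = 0.0014), where the brighter probe gave -0.98 (adjusted p = 0.0168). APOE by its other probe fell 2.04-fold over the same days (-1.03, adjusted p = 0.00156), and the brighter probe gave -0.91 (adjusted p = 0.025). SIGLEC1 differed, since its other probe was -0.03 and 0.33 from control on day 4 and -0.76 (adjusted p = 0.00739) from day 4 to day 7, under 2-fold. CPA3 by its other probe was -0.42 from day 4 to day 12 (adjusted p = 0.393), against -0.98 (adjusted p = 0.0324). The other probes of KIT, CD80 and MSR1 were above background on 14, 4 and 6 of 24 arrays.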
